A study of Mus musculus with 2 samples.

Results

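The core pluripotency genes examined here are Pou5f1 (which encodes Oct4), Sox2, Sall4, Sall1, Zfp281, Utf1, Dppa2, Dppa4, Trim28 and Lin28. These 10 genes were chosen by name, with earlier results of these data known. Each was found as 1 of the 30774 gene identifiers on an Illumina mouse beadchip. Total RNA came from B6 mouse embryonic stem cells (mESCs), labelled as of strain B6 and of inner cell mass origin from the E3.5 embryo. Both cultures were in serum medium with leukemia inhibitory factor (LIF), the cytokine that acts through Stat3, and 1 of them also received CHIR99021 (CHIR), a GSK3 inhibitor that switches on Wnt/β-catenin signaling. The labels give 12 h of treatment and no concentration of CHIR. There was 1 array for LIF and 1 array for LIF plus CHIR, so the spread between cultures is unknown and no test of a difference could be made.

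Oct4 and Sox2 are transcription factors that bind DNA side by side at the enhancers of many genes of pluripotent cells, their own genes included. Around them work zinc finger proteins (Sall4, Sall1, Zfp281), chromatin-associated proteins found mainly in early embryonic and germ cells (Utf1, Dppa2, Dppa4), a co-repressor (Trim28) and an RNA-binding protein (Lin28). Oct4 and Sox2 are present both in naive mESCs and in the later, primed epiblast, whereas naive factors such as Klf4 and Esrrb are known for being lost on the way. The comparison asks what happened to this common core when β-catenin signaling was added to LIF.

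Of the 10 genes, 8 were detected on both arrays, with a detection p-value (the signal set against negative control beads) under 0.01. Of these 8, 7 had a lower signal in LIF plus CHIR and 1, Lin28, a higher one. The differences were small for most of them. Sall1 had a 1.51-fold lower signal and Utf1 a 1.41-fold lower one, while the other 6 differed by 1.13-fold or less. The median log2 fold change (LIF plus CHIR over LIF) of the 8 was -0.15, beside 0.00 over all 9615 identifiers detected on at least 1 array. Sox2 and Dppa2 did not pass the detection limit on either array.

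Promoter sequences are shown for 4 members: Sall1 and Utf1, which differed most, Lin28, the member that was higher with CHIR, and Pou5f1. They are the 250 bases before the RefSeq start on build GRCm38.p6, 5′ to 3′ on the strand of the gene. For Sall1 and Pou5f1, which have more than 1 listed start, the window farthest upstream is printed. Capitals mark the GC box, the GGGCGG core that Sp family factors such as Sp5 can bind, and the TCF/LEF core CTTTGA, through which β-catenin partners bind DNA, each on either strand (CCGCCC and TCAAAG).
Utf1, chr7:139943606-139943855, plus strand: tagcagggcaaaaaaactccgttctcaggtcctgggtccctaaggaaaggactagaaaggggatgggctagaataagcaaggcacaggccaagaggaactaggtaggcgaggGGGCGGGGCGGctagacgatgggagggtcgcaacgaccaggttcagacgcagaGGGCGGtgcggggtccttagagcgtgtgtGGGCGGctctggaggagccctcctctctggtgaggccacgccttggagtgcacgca
Sall1, chr8:89044163-89044412, minus strand: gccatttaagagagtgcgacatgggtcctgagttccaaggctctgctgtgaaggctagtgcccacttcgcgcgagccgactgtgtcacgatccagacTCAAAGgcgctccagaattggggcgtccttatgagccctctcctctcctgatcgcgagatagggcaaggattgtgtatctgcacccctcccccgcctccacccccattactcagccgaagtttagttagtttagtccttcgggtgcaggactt
Lin28 (Lin28a in RefSeq), chr4:134018817-134019066, minus strand: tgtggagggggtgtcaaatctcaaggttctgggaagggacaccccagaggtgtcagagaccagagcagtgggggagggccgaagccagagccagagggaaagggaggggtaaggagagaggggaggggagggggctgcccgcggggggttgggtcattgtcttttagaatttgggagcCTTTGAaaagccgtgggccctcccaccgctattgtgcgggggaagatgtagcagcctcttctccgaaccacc
Pou5f1, chr17:35505782-35506031, plus strand: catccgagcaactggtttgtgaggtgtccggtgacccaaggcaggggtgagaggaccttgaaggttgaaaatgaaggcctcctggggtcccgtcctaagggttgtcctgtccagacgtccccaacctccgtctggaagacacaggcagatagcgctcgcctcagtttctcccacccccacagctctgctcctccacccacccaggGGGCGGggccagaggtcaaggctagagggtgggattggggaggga

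The Utf1 window held 4 GC boxes, of which 2 overlap by 1 base, and no TCF/LEF core. The Pou5f1 window held 1 GC box. The Sall1 window shown held 1 TCF/LEF core and no GC box, and the Lin28 window likewise held 1 TCF/LEF core and no GC box. The Sall1 windows not shown held 4 and 1 GC boxes and no TCF/LEF core. The 7 members in the table had 10 windows, of which 7 held a GC box and 2, the Sall1 and Lin28 windows shown, a TCF/LEF core. Of 32851 promoter windows of the same length, 32.7% held a GC box and 13.8% a TCF/LEF core. The octamer ATGCAAAT (other strand ATTTGCAT), the sequence that Oct4 recognizes, was in 0 of the 10 member windows and in 1.60% of all windows. The share of G and C in the member windows ran from 45.6% in the other Pou5f1 window to 78.4% in 1 of Sall1, with 61.6% for Utf1 and 62.0% for Pou5f1 in the windows shown and a median of 52.4% over all windows. The letters say nothing about whether a factor was bound there in these cells.

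The label of the cells was checked against marker genes. All 6 naive mESC markers (Nanog, Zfp42, Klf4, Esrrb, Tfcp2l1 and Tbx3) were detected on both arrays, with a summed signal of 23333 in LIF and 33818 in LIF plus CHIR. Of 6 post-implantation epiblast markers, 5 were also detected on both arrays, with a summed signal of 21442 in LIF and 14819 in LIF plus CHIR. Of 8 fibroblast markers 0 were detected, and Col1a1, Col3a1, Postn and Dcn had signals below 0 on both arrays. The summed fibroblast signal was 870.5 in LIF against 1034 in LIF plus CHIR, most of it from Vim and Thy1. Among 6 primitive endoderm markers 1 was detected (Sox7), among 6 neural markers 1 (Nes, in LIF plus CHIR) and among 6 trophoblast markers 3. Their summed signals were 131.1 and 117.2, 44.6 and 112.2, and 3236 and 3483, on the LIF and the LIF plus CHIR array respectively. Cdx2, the trophoblast homeobox factor, had 23.6 (not detected) in LIF and 93.5 with CHIR (log2 1.98), while Tfap2c made up most of the trophoblast sum (3175 and 3329). Nes, a neural filament protein, had 27.7 (not detected) and 44.8 (log2 0.69). Gata4, Sox17 and Pax6 were not detected. The part of these markers in the differences of the core genes was not tested. Of 10 feedback targets of β-catenin, 4 were detected, 2 of them on both arrays. Axin2 had a signal of 314.1 in LIF against 1178 in LIF plus CHIR, and of the 2 targets detected on both arrays it alone was at least 1.5-fold higher. Sp5, with 48.8 (not detected) and 809.5, and Tcf7, with 27.5 (not detected) and 46.0 (log2 0.74), entered only through the LIF plus CHIR array. In bulk RNA of this kind, fewer cells expressing a gene and less RNA in each cell cannot be told apart.

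Pou5f1 (Entrez gene 18999, chromosome 17, band 17qB1) encodes the POU-domain factor Oct4, without which the inner cell mass does not become pluripotent. Its signal was 12346 in LIF against 11309 in LIF plus CHIR, an 8.40% lower value (log2 fold change -0.13). The difference was an ordinary one for a bright gene: among the 3269 identifiers whose brighter signal was 1000 or more, 59.5% had a smaller absolute change. Of the same 3269 identifiers, 5% lay below -0.29 and 5% above 0.28.

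Sox2 encodes the HMG-box partner of Oct4. Its identifier on the chip carried no Entrez gene number, and its detection p-values showed that several probes had been combined into 1 value. The signal was 441.2 in LIF against 400.2 in LIF plus CHIR, with detection p-values of 0.0503 and 0.276. Sox2 therefore had no fold change under the detection limit of 0.01, nor under one of 0.05. The plain ratio of the signals, given as a description, was 0.907 (log2 -0.14), close to that of Pou5f1. A sizeable signal without detection was seen for many other identifiers. Of 5320 identifiers at or above 400.2 on both arrays, 530 (9.96%) were detected on neither array. All 530 appeared to have several probes, which had to be so, because an identifier of 1 probe this bright passes detection. They made up 44.1% of the 1202 identifiers recognized as combined in this range. Combined probes with detection p-values of 0 on both arrays could not be recognized, so that share may be too high. Klf5 was in the same position, with signals of 7356 in LIF against 8295 in LIF plus CHIR and detection p-values of 0.272 and 0.486. How the probes were combined is not stated, so the arrays do not settle the level of Sox2.

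The zinc finger genes ranged from almost level to the largest difference among the detected members. Sall4 (Entrez gene 99377, chromosome 2, band 2qH3), a regulator of Pou5f1 that binds together with Oct4 and Nanog, had 6521 in LIF and 5980 in LIF plus CHIR. This was 8.30% lower (log2 -0.12), nearly the same change as that of Pou5f1. Sall1 (Entrez gene 58198, chromosome 8, band 8qC3), a related factor best known from kidney development, had 651.3 in LIF and 432.5 in LIF plus CHIR. That is 33.6% lower, a log2 fold change of -0.59, just past the 1.5-fold limit, which is 0.58 in size on the log2 scale. Within its array Sall1 went from the 85.88th percentile of all identifiers in LIF to 82.77 in LIF plus CHIR, a change of -3.11 points.

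With the deposited signals, Sall1 was the only detected member past 1.5-fold in either direction. Normexp background correction, which models the background under each signal, took it to -0.22 when fitted on all identifiers, where Utf1 passed with -0.59, and to -0.57 when fitted on identifiers with 1 probe. Over all 9615 detected identifiers, 8.13% passed that limit, 4.11% as higher and 4.02% as lower, so 1 of 8 members is near what the whole chip gave. In the range of Sall1 (brighter signal from 100 to 1000), 3.67% of 4521 identifiers were at least 1.5-fold lower, and 161 of them (3.56%) were as low as Sall1 or lower. Zfp281 (Entrez gene 226442, chromosome 1, band 1qE4), a zinc finger factor that can hold back Nanog, had 1166 in LIF and 1032 in LIF plus CHIR (11.5% lower, log2 -0.18). In its range 74.3% of identifiers had a smaller absolute change. The zinc finger members thus did not share 1 size of difference. Sall2, a paralogue of Sall1 and Sall4, had 179.4 in LIF and 139.9 in LIF plus CHIR (log2 -0.36). Sall3, another paralogue of Sall1 and Sall4, ran the other way, with 270.0 in LIF and 404.1 in LIF plus CHIR (log2 0.58), on an identifier of several probes.

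**Figure D1:**
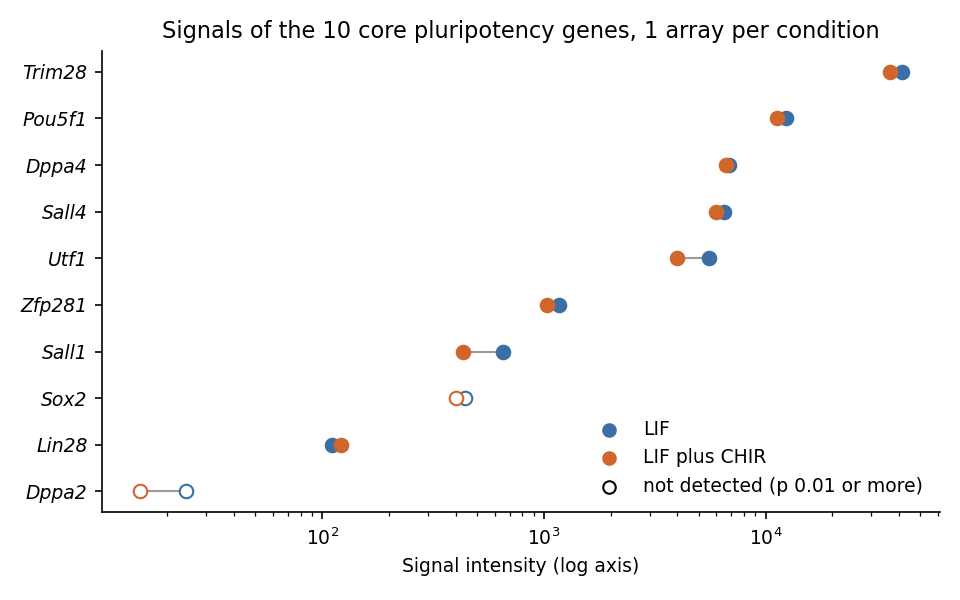
Signal intensity (log axis) of the 10 genes on the LIF array (blue) and the LIF plus CHIR array (orange), 1 array each, with open circles where the detection p-value was 0.01 or more. The orange point lies left of the blue one for every gene but Lin28, by most for Dppa2 (not detected), Sall1 and Utf1; levels of different genes come from different probes and are not comparable.

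Utf1 (Entrez gene 22286, chromosome 7, band 7qF4) is a chromatin-bound factor of undifferentiated cells and a classic target of Oct4 and Sox2. Its signal was 5585 in LIF against 3972 in LIF plus CHIR, 28.9% lower (log2 -0.49). This stayed inside the 1.5-fold limit but was large for so bright a gene. Of the 3269 identifiers with a signal of 1000 or more, 56 (1.71%) were as low as Utf1 or lower, and 33 of them (1.01%) were at least 1.5-fold lower. In rank, Utf1 went from the 97.22nd percentile of the LIF array to 96.04 on the other, a change of -1.18 points. Pou5f1 moved by -0.15 points and Sall4 by -0.19.

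Dppa4 (Entrez gene 73693) and Dppa2 (Entrez gene 73703) are neighbours on chromosome 16 (band 16qB5 for both), and their proteins bind each other and prime developmental promoters in mESCs. Dppa4 had 6820 in LIF and 6606 in LIF plus CHIR, 3.14% lower (log2 -0.05), the smallest difference among the detected members. Its identifier combined several probes, and the detection p-values of 0.00986 in LIF and 0.00396 in LIF plus CHIR were close to the limit. Dppa2 had 24.2 in LIF and 15.1 in LIF plus CHIR, with detection p-values of 0.156 and 0.248. By these p-values Dppa2 did not stand out from the negative controls, though its identifier also combined several probes, as that of Sox2 did. No fold change is given, and these arrays do not show Dppa2 as a gene kept in both states. The other Dppa genes in the lists were bright and level. Dppa3 (Stella) had 4216 in LIF against 4105 in LIF plus CHIR, and Dppa5a had 57706 and 55732 (log2 -0.04 and -0.05). Of 10 genes listed as dependent on Dppa2 and Dppa4, Dppa3 among them, 8 were on the chip and 1, Dppa3, was detected.

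Trim28 (Entrez gene 21849, chromosome 7, band 7qA1), also called KAP-1, is the co-repressor through which KRAB zinc finger proteins silence endogenous retroviruses. It had 41149 in LIF and 36276 in LIF plus CHIR, 11.8% lower (log2 -0.18), and 75.7% of identifiers in its range had a smaller absolute change. Among proteins that silence chromatin with it, 8 of 12 listed genes were detected and 0 passed 1.5-fold in either direction, a count near the 8.13% of all detected identifiers. Setdb1, the histone methyltransferase it recruits, had 2166 in LIF and 2211 in LIF plus CHIR (log2 0.03). Zfp57, the KRAB zinc finger protein of imprinted loci, had 769.0 and 709.0 (log2 -0.12), and Zfp809, which targets retroviral DNA, had 310.2 and 367.2 (log2 0.24). The median of the list was -0.04.

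Lin28, listed now as Lin28a, encodes an RNA-binding protein that blocks maturation of the let-7 microRNAs. Its signal was 110.2 in LIF against 121.7 in LIF plus CHIR, with detection p-values of 0.000609 and 0.00104. The 10.5% higher value (log2 0.14) was the only one above 0 among the detected members, and 46.9% of identifiers in its range had a smaller absolute change. Like Sox2, this identifier had no Entrez gene number and several probes. The paralogue Lin28b was not detected, with 3.14 in LIF and -0.923 in LIF plus CHIR. Of 8 genes of microRNA processing and let-7 turnover, 7 were detected and 0 passed 1.5-fold, with Drosha at 5176 in LIF and 5358 in LIF plus CHIR. Of 8 known let-7 targets, 5 were detected and 0 passed. For lists this short, 0 is near what 8.13% over all detected identifiers gives. Trim71, a ubiquitin ligase among those targets, had 2262 and 1786 (log2 -0.34), and Igf2bp2, an RNA-binding protein, had 2886 and 3394 (log2 0.23).

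**Figure D2:**
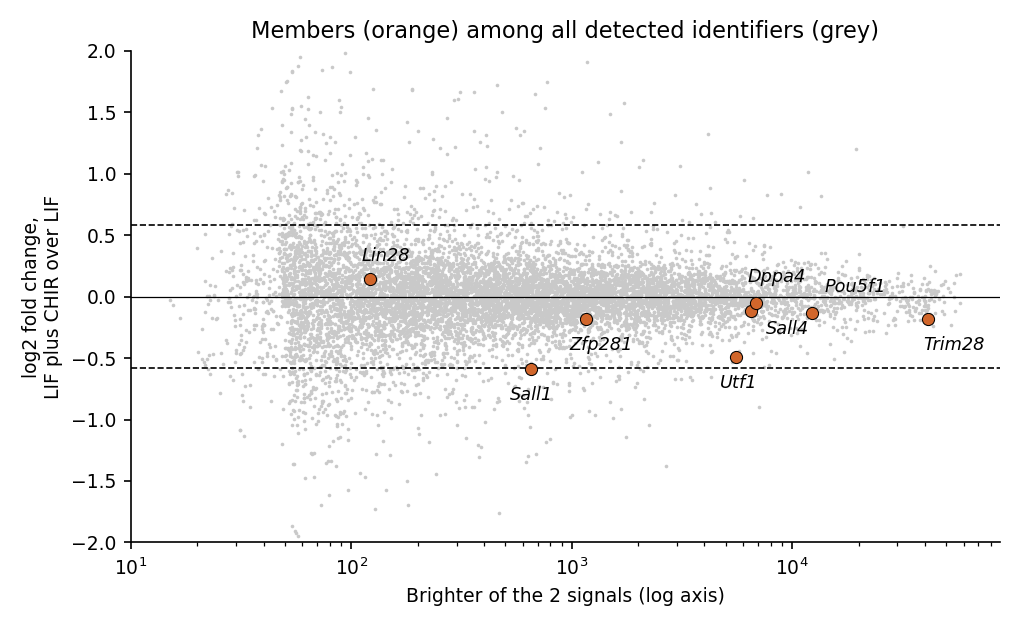
Log2 fold change of LIF plus CHIR over LIF against the brighter of the 2 signals (log axis) for 9615 detected identifiers (grey) and the 8 detected members (orange); dashed lines mark 1.5-fold, and 32 identifiers lie outside the plotted range of 2. The grey cloud is wider at low signals, Sall1 touches the lower line, Utf1 lies at the lower edge of the cloud at its brightness and Lin28 is the only member above 0.

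Seen together, the detected members leaned to lower signals with CHIR by a small amount. Below 0 were 7 of 8, beside 4788 of 9615 identifiers (49.8%) on the whole chip and 50.6% of those with a signal of 1000 or more. Such a lean was not particular to the members. Below 0 were also 6 of 8 detected genes that silence chromatin with Trim28 and 7 of 10 in the paralogue list. Of the remodelling complexes described below, it was 7 of 11 for esBAF and 5 of 8 for NuRD (median -0.13). Other lists went the other way, with 4 of 15 other network factors and 3 of 7 let-7 machinery genes below 0. For the 6 members at 1000 or more (Trim28, Pou5f1, Dppa4, Sall4, Utf1 and Zfp281) the median was -0.15, where all identifiers of that brightness had a median at 0.00 within rounding. Without Sall1 the median of the members was -0.13, and without both Sall1 and Utf1 it was -0.13 as well. The 6 detected members taken to have 1 probe are all among the 7 below 0. Their detection p-values were 0 on both arrays, where 1 probe and several cannot be told apart. These are descriptions of 2 arrays, and whether 1 culture differed from another by as much without CHIR was not measured. The members were chosen with earlier results of these data known, so their share below 0 describes these genes and tests nothing.

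Genes known as targets of Oct4 and Sox2, listed apart from Utf1, were mixed in direction. Of 10 listed, 7 were detected, 4 with a lower and 3 with a higher signal in LIF plus CHIR, and the median log2 fold change was -0.30. At least 1.5-fold lower was 1 of the 7, where 4.02% of all detected identifiers were. The gene past the limit was Fgf4, a growth factor with a well-known enhancer bound jointly by Oct4 and Sox2, with 712.7 in LIF and 430.1 in LIF plus CHIR (log2 -0.73). Inside the limit were Rif1, a protein of replication timing, with 255.3 and 174.8 (log2 -0.55), and Lefty1, a Nodal antagonist, with 2896 and 2220 (log2 -0.38). Fbxo15, an F-box protein used as a pluripotency reporter, had 4211 and 3414 (log2 -0.30). Higher were Nanog, the homeobox factor, with 1660 in LIF and 2429 in LIF plus CHIR (log2 0.55), the secreted phosphoprotein Spp1 (log2 0.13) and Zfp42 (log2 0.08). Nanog and Zfp42 are also counted among the naive markers and among the other transcription factors of the network below. After normexp background correction fitted on all identifiers, the median of the list was -0.07 and 0 of its genes were at least 1.5-fold lower.

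Of 20 other transcription factors of the network, 15 were detected, 11 with a higher and 4 with a lower signal in LIF plus CHIR (median 0.16). At least 1.5-fold higher were 4 and lower 0, beside 4.11% and 4.02% of all detected identifiers. The 4 were Tbx3 (log2 1.23), a T-box factor of naive cells, Nr5a2 (1.01), a nuclear receptor that can stand in for Oct4 in reprogramming, Klf2 (0.83) and Tfcp2l1 (0.82), both of the naive network. Nr5a2 had a signal of 226.8 in LIF and 458.1 in LIF plus CHIR, on an identifier of several probes. The lower ones, all inside the limit, included Tcf7l1, which encodes the repressor Tcf3 (2798 in LIF and 2424 in LIF plus CHIR, log2 -0.21), and Zscan10, a partner of Oct4 and Sox2 (4158 and 3613, log2 -0.20). With 1 array each, the difference between this list and the core was not tested.

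Protein complexes that work with the core factors had members on both sides of 0. For NuRD, the histone deacetylase and remodelling complex that Sall4 and Zfp281 recruit, 8 of 14 listed subunit genes were detected and 0 passed 1.5-fold (median -0.13), which is near the 8.13% of all detected identifiers that did. Their values ranged from Mta3 (3065 in LIF, 2269 in LIF plus CHIR, log2 -0.43) to Rbbp7 (4163 and 5305, log2 0.35). For esBAF, the remodelling complex of mESCs that shares sites with Oct4 and Sox2, 11 of 14 were detected and 0 passed (median -0.06), again near that share. Smarca4, its ATPase, had 580.0 and 637.9 (log2 0.14), and Arid1a had 236.7 and 170.1 (log2 -0.48). The 6 detected of 10 reference genes, among them Gapdh, Actb and Ppia, had a median of 0.01 and ranged from -0.16 to 0.06.

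Paralogues of the core genes gave 1 large difference. Of 15 listed, 10 were detected. Among them are Dppa3 and Dppa5a, which share the Dppa name with Dppa2 and Dppa4 rather than being their paralogues. Of these 10, 1 passed the limit in either direction, a count near the 8.13% of all detected identifiers. The 1 past the limit was Pou3f1 (Oct6), a POU factor of the primed epiblast, with 2902 in LIF and 516.2 in LIF plus CHIR (log2 -2.49). Pou2f1 (Oct1), the widely expressed POU factor that binds the same octamer, had 573.5 and 524.0 (log2 -0.13). Sox15, which can bind DNA with Oct4 as Sox2 does, had 304.7 and 289.2 (log2 -0.08). Sox1 and Sox3, the nearest relatives of Sox2, were not detected. Zfp148, the relative of Zfp281, had 400.3 and 485.2 (log2 0.28).

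**Figure D3:**
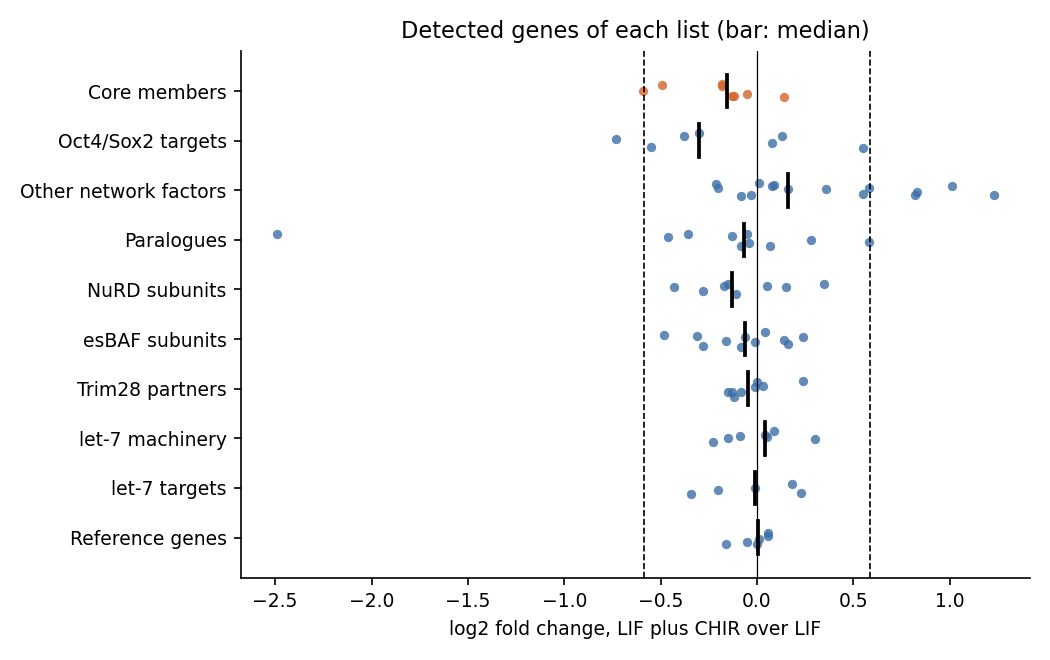
Log2 fold change of LIF plus CHIR over LIF for the detected genes of each list (1 point per gene, black bar for the median, dashed lines at 1.5-fold). The core members have a median of -0.15, the Oct4/Sox2 targets -0.30 and the other network factors 0.16, and the point farthest left is Pou3f1 at -2.49. Nanog and Zfp42 stand in both the target and the network list.

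Most members moved little under other ways of processing the signals. Over 10 other settings that gave a fold change, Pou5f1 lay between -0.16 and -0.13, Sall4 between -0.13 and -0.12, Trim28 and Zfp281 each between -0.18 and -0.15, and Dppa4 between -0.06 and -0.05. The exceptions were the members with larger differences and the dimmest one. Sall1 reached from -0.59 to -0.22 and Utf1 from -0.59 to -0.49, so which of them passed 1.5-fold depended on the background correction. Lin28 lay between 0.01 and 0.15. No detected member changed sign under any of these settings. Those that changed only the detection rule, the minimum signal or the table could not move a detected member. All detected members lay above every minimum used, and the tables shared the same values. Only quantile normalization, scaling to equal medians and the normexp fits could move them.

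**Figure D4:**
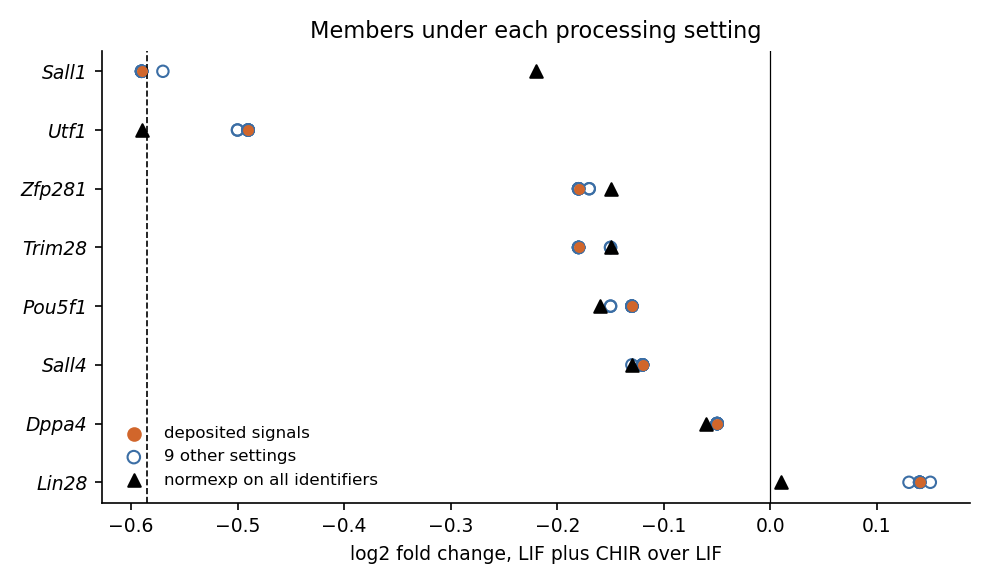
Log2 fold change of each detected member with the deposited signals (orange), under 9 other settings (blue circles) and after normexp background correction fitted on all identifiers (black triangles), with the dashed line at 1.5-fold lower. Sall1 moves to -0.22 and Utf1 to -0.59 under that correction, and no member crosses 0. Settings that change only the detection rule, the minimum signal or the table return the deposited value.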

How the data were processed

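RNA of the LIF culture and of the LIF plus CHIR culture was hybridized to Illumina mouse beadchips, 1 array per condition, and arrays were assigned from their labels. The authors deposited linear signal intensity, 1 value per gene identifier, already background-subtracted and nearly equal in distribution between arrays. The method is not stated. Each deposited signal came with a detection p-value from the authors. The longer table (30774 identifiers) and the shorter one (11702) differed in 0 shared values. Here an identifier entered if either array had a detection p-value under 0.01 (9615), and signals under the lowest detected one (15.1 in LIF, 14.8 in LIF plus CHIR) were raised to it. Folds are LIF plus CHIR over LIF, with a limit of 1.5-fold. Identifiers whose p-values were multiples of 1 over 936 were taken to have 1 probe (23264). A p-value of 0 counted as such a multiple, so combined probes with 0 on both arrays would be taken as 1 probe. The number of arrays limits the precision.

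Members and lists were chosen with earlier results of these data known. Named genes were the 10 members, genes past 1.5-fold in each list, and examples picked after their values were seen. Of 156 list genes, 125 were matched by Entrez gene number, 24 by symbol through RefSeq (GRCm38.p6), and 7 were not on the table; of several identifiers the brightest detected was used. Promoters came from RefSeq, for 7 members (not Sall4, Dppa2 or Dppa4). Python 3.11.15, pandas 2.3.3, numpy 2.4.6, matplotlib 3.10.9, R 4.3.3 and limma 3.58.1 were used, and the calculation was tested on simulated data. Of the alternatives, 10 were planned and 1, detection by signal, was added after seeing the data.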

Additional observations from a re-analysis of the deposited data

How the results depend on the processing

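No paired analysis was possible because there is a single array for each culture. With the deposited signals, 1 of the 8 detected members (Sall1) was at least 1.5-fold lower and 0 were higher. Normexp background correction fitted on all identifiers took Sall1 to -0.22 and Lin28 to 0.01 and brought Utf1 to -0.59, past the limit, so that the count stayed at 1 with another gene. That fit gave a background SD of 588.4 in LIF and 585.8 in LIF plus CHIR. Fitted on identifiers with 1 probe, with a background SD of 15.4 in LIF and 15.3 in LIF plus CHIR, it gave -0.57 for Sall1 and left 0 members past the limit. A limit of 2-fold also left 0. Detection by signal, which was added, gave Sox2 a log2 fold change of -0.14. The median of the members stayed between -0.15 and -0.14 under 10 alternatives. Of these, only quantile normalization, scaling to equal medians and the normexp fits could move a member's value. The others could alter only which members entered. Over all identifiers, 395 were higher and 387 lower with the deposited signals. Normexp on all identifiers gave 55 and 49, normexp on identifiers with 1 probe 274 and 258, a detection p-value under 0.05 gave 682 and 684, detection on both arrays 203 and 227, and 2-fold 129 and 85. With a minimum signal taken from identifiers with 1 probe (51.9 in LIF, 47.1 in LIF plus CHIR), 247 were higher and 273 lower. NuRD, with 0 genes past 1.5-fold, had 1 lower under normexp on all identifiers and 1 higher with detection by signal. Of 534 values for the gene lists and all identifiers under alternatives, 497 kept within 1.5 times (counts) or 0.1 (log2 medians) of the main value and 37 moved. Many of the 534 could hardly move. The shorter table held the same values, and settings of detection or minimum signal left the folds of bright detected genes as they were. The 497 are therefore no measure of how stable the lists are. A dim signal is limited most: under 100, 20.7% of identifiers passed 1.5-fold, against 2.20% at 1000 or more.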

Other observations

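The post-implantation epiblast list held large differences in both directions. Of 6 genes, 5 were detected, 2 were at least 1.5-fold lower and 2 higher, beside 4.02% and 4.11% of all detected identifiers. Otx2, a homeobox factor of the primed epiblast, had 947.4 in LIF and 119.7 in LIF plus CHIR (log2 -2.98), and Pou3f1 stands beside it at -2.49. Higher were Lefty2, a Nodal antagonist (2061 and 3172, log2 0.62), and Wnt8a, a Wnt ligand (50.4 and 129.0, log2 1.36), the latter on an identifier of several probes. Dnmt3b, the de novo DNA methyltransferase, had 15438 and 10870 (log2 -0.51). These genes were named after their values were seen.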
